A study of Mus musculus with 4 samples.

Results

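The genes for glutamate tRNA (tRNA-Glu) and glycine tRNA (tRNA-Gly) were followed in small RNA of mouse sperm. They were taken by name from the tRNA class of the deposited tables, whatever their anticodon, and came to 53 features of 438 in the class: 22 for glutamate and 31 for glycine. Sperm was taken from the cauda epididymis, where mature sperm are held, of adult C57BL/6 mice. Of these mice 2 came from an extra cross to wildtype and 2 from the original cross, and each gave 1 library. By its title the study concerns susceptibility of sperm to LoxP silencing, LoxP being the target sequence of Cre recombinase. Which of the crosses was the susceptible one is not stated in the labels, nor is a genotype, an allele or a promoter. Values are in RPM, reads scaled to the size of the library, and each of the 2 deposited tables holds the libraries of 1 replicate number, with 1 column per cross. What such bulk values cannot tell apart is fewer cells of a type and less RNA per cell.

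Transfer RNAs carry an amino acid to the ribosome and read its codon through the anticodon, so that several anticodons serve 1 amino acid. In mature mouse sperm much of the tRNA sequence is present as fragments, mainly from the 5′ side of the molecule, and those of glutamate and glycine tRNA are among the best known. Such fragments have been studied as carriers of paternal diet and stress effects, and part of them is acquired from the epididymal epithelium during transit.

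The value of 1 read was 0.642 and 0.238 RPM in extra-cross replicates 1 and 2, and 1.58 and 0.561 RPM in original-cross replicates 1 and 2. The RPM scale thus rests on 1557766 and 4205692 reads in the extra cross and 632859 and 1782506 reads in the original cross. Transcripts that define spermatids and sperm (8 in all, among them the protamines Prm1 and Prm2) were barely present as fragments. None exceeded 3.16 RPM in any library, and all but Odf1 were at 0 in original-cross replicate 1. Their summed level was 5.14 and 3.45 RPM in the extra cross and 3.16 and 6.17 RPM in the original cross. Levels of transcript fragments do not compare with those of microRNAs, another class of RNA, and no microRNA of sperm was listed. The microRNAs listed for other cell types were all present. Their summed level was 10408 and 5315 RPM in the extra cross and 4394 and 2055 RPM in the original cross for the 5 of epididymal epithelium. For the 6 of smooth muscle and stroma it was 3382 and 5078 RPM in the extra cross and 8547 and 6264 RPM in the original cross. For the 6 of blood it was 7912 and 818 RPM in the extra cross and 5260 and 940 RPM in the original cross. The part of these cells in the tRNA values was not tested.

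Names of tRNA genes give the amino acid, the anticodon, a family number and a copy number. In all 9 families with more than 1 gene, the copies carried identical values in all 4 libraries. The 53 features therefore held 23 distinct rows, 1 per family, and values were summed by family and by anticodon. Of the 23 families 20 had a mean of at least 10 RPM over the 4 libraries, the minimum for a test. The lowest gene inside this minimum had a mean of 11.3 RPM and the highest gene outside it 7.07 RPM, this being a copy of Gly-CCC-2, whose sum of 2 copies passed. The 3 families below it were Glu-CTC-6, listed only in the table of replicate 2, at 0 in the extra cross and 0.281 RPM in the original cross, and Gly-CCC-3 and Gly-CCC-4, which stayed between 5.64 and 9.24 RPM.

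In the RefSeq annotation of GRCm38.p6 (the assembly also called mm10), 48 loci are named as nuclear tRNA genes for these amino acids, on 14 chromosomes. They are 12 loci for Glu-CTC, 8 for Glu-TTC, 14 for Gly-GCC, 6 for Gly-CCC, 7 for Gly-TCC and 1 for Gly-ACC. All are between 71 and 74 bases long, so levels of these genes compare almost alike per read and per base. Of the 48 loci 15 lie on chromosome 1, and 13 of these fall into 1 array of 25 tRNA genes (chr1:171033942-171111515). The array holds 4 Glu-CTC, 5 Gly-TCC and 4 Gly-GCC loci beside genes for aspartate, leucine, asparagine and valine tRNA. Within it a unit of 5 genes (Glu-CTC, Gly-TCC, Asp-GTC, Leu-CAG, Gly-GCC) occurs 3 times in the same order, at a spacing of 7.61 to 7.63 kb. In each unit the Glu-CTC and Gly-TCC genes are 463 to 470 bases apart. The locus names do not tie to the family and copy numbers of the deposited tables, so no family was placed at a locus.

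**Figure D1:**
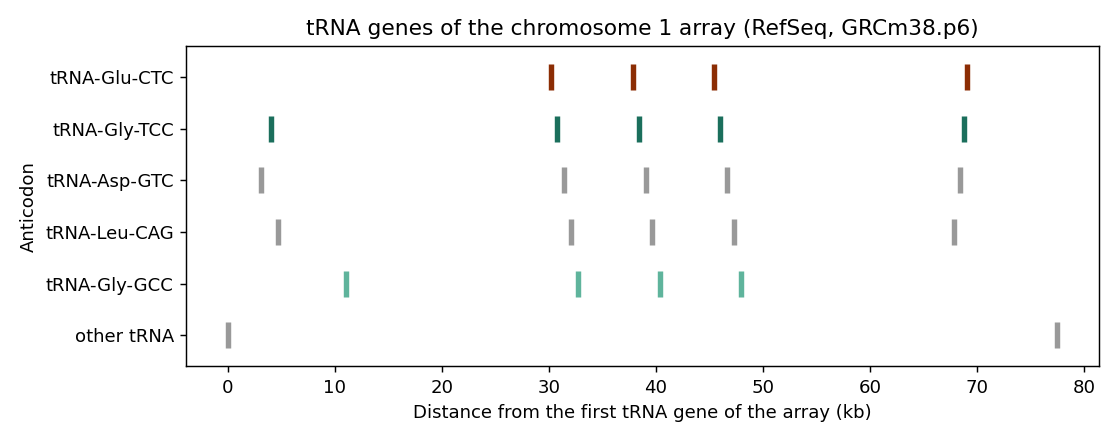
Position of the 25 tRNA genes of the chromosome 1 array, as distance in kb from the first gene (x axis), by anticodon (y axis). Each mark is 1 RefSeq locus, and the 3 repeats of the 5-gene unit stand at even spacing in the middle of the array.

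Together the glutamate and glycine genes held 30.6% and 45.9% of the summed tRNA class in the extra cross, and 31.3% and 45.9% in the original cross. Glutamate accounted for most of this. The glutamate sum was 39637 and 119273 RPM in the extra cross and 45976 and 124121 RPM in the original cross. The glycine sum was 13273 and 14394 RPM in the extra cross and 13464 and 16698 RPM in the original cross. Neither sum separated the crosses, whose libraries overlapped for both amino acids. The log2 fold change of extra over original cross was -0.14 ± 0.64 (SE) for glutamate and -0.12 ± 0.58 for glycine, each with a limma adjusted p of 0.992.

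**Figure D2:**
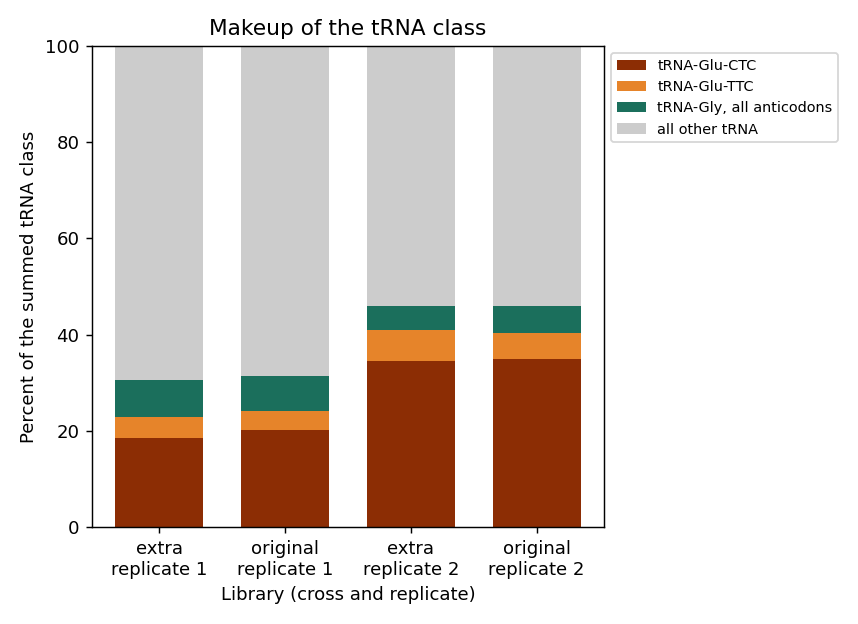
Percent of the summed tRNA class (y axis) held by tRNA-Glu-CTC, tRNA-Glu-TTC, all tRNA-Gly genes and all other tRNA in each of the 4 libraries (x axis). The bars of the same replicate number look alike in both crosses, with glutamate at 22.9% and 24.2% in the replicate 1 libraries of the extra and original cross and at 41.0% and 40.4% in those of replicate 2.

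Among the anticodons, Glu-CTC, which reads the glutamate codon GAG, led with 32198 and 100810 RPM in the extra cross and 38466 and 107037 RPM in the original cross. It ranked first among the 54 anticodons of the class in 3 libraries and second in extra-cross replicate 1, where Val-CAC had 34603 RPM. Glu-TTC, which reads GAA, had 7438 and 18462 RPM in the extra cross and 7510 and 17083 RPM in the original cross. Gly-GCC, the main glycine tRNA of sperm fragments, had 11040 and 11432 RPM in the extra cross and 10862 and 13368 RPM in the original cross. Glu-TTC and Gly-GCC changed places between the tables, with Gly-GCC higher in both libraries of replicate 1 and Glu-TTC higher in both of replicate 2. Below them came Gly-CCC, at 2091 and 2688 RPM in the extra cross and 2373 and 2959 RPM in the original cross. Gly-TCC was far lower, at 130 and 249 RPM in the extra cross and 223 and 349 RPM in the original cross. The single Gly-ACC gene had 11.3 and 26.2 RPM in the extra cross and 6.49 and 22.1 RPM in the original cross, which in original-cross replicate 1 stands for the worth of 4.11 reads. Apart from the exchange of Glu-TTC and Gly-GCC, the order of these 6 levels was the same in every library.

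**Figure D3:**
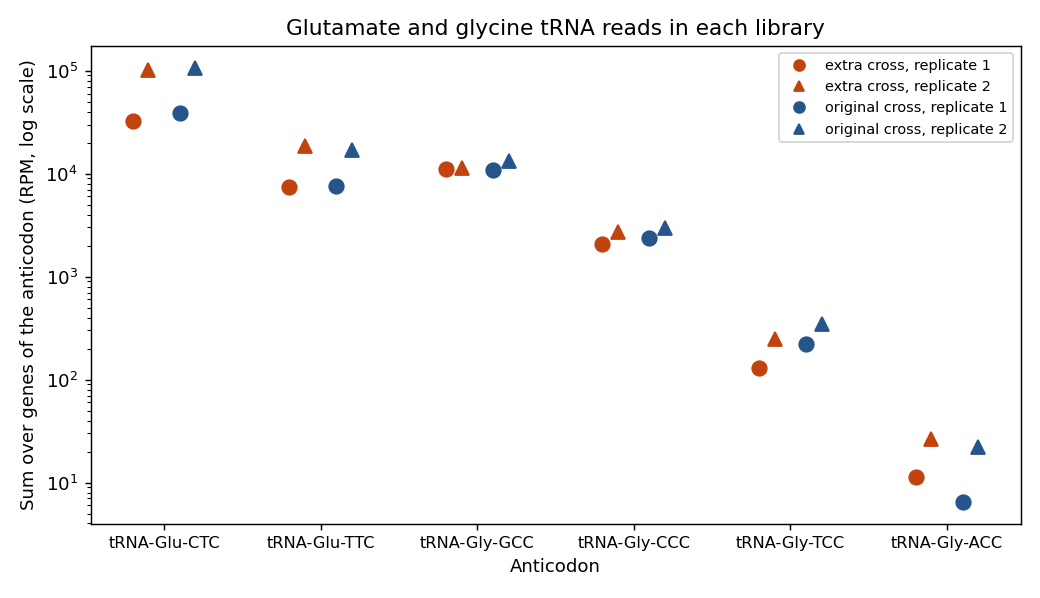
Sum of all genes of each glutamate or glycine anticodon in RPM (y axis, log scale) by library, with extra-cross libraries left of original-cross libraries and the replicate number given by the symbol. For Glu-CTC and Glu-TTC both replicate 2 libraries lie well above both replicate 1 libraries, while for Gly-GCC all 4 lie between 10862 and 13368 RPM.

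Glu-CTC rested almost wholly on the 9 copies of Glu-CTC-1, which held 87.9% and 91.7% of its sum in the extra cross and 88.2% and 90.9% in the original cross. Within glutamate, Glu-CTC held 81.2% and 84.5% in the extra cross and 83.7% and 86.2% in the original cross. The ratio of Glu-CTC to Glu-TTC was 4.33 and 5.46 in the extra cross and 5.12 and 6.27 in the original cross, with differences of extra minus original cross of -0.793 and -0.805 in the tables of replicates 1 and 2 (exact permutation test, two-sided p = 0.667, n = 2 per cross). With 2 mice against 2 the smallest p that this test can give is 0.333. Within glycine, Gly-GCC held 83.2% and 79.4% in the extra cross and 80.7% and 80.1% in the original cross. Most of Gly-GCC came from the 8 copies of Gly-GCC-2, with 6826 and 7064 RPM in the extra cross and 6520 and 8158 RPM in the original cross.

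The families Glu-CTC-1 and Gly-TCC-1 differed far more from each other in level than the crosses did. Glu-CTC and Gly-TCC genes are neighbours in each repeat of the 5-gene unit, but no family was placed at a locus. All copies of a family carry 1 identical value, so the values below are not levels of single or adjacent genes. Each copy of Glu-CTC-1 had 3144 and 10275 RPM in the extra cross and 3771 and 10810 RPM in the original cross. Each copy of Gly-TCC-1 had 17.2 and 33.6 RPM in the extra cross and 29.8 and 47.4 RPM in the original cross. A Glu-CTC-1 copy thus stood 183-fold and 306-fold above a Gly-TCC-1 copy in the extra cross, and 127-fold and 228-fold in the original cross. Both are genes of 72 bases, so the ratio is the same per base. The extra cross had the higher ratio in either table, but the libraries of the crosses overlapped (exact permutation test, two-sided p = 0.667, n = 2 per cross).

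None of the 6 anticodon sums differed between the crosses by the test across all small RNA features. Over the 501 features with tRNA summed by anticodon, 0 (0%) passed limma after Benjamini-Hochberg adjustment at 0.05. Before adjustment 107 (21.4%) were under 0.05, none of them a glutamate or glycine anticodon. The libraries of the crosses stood apart for none of the 6 sums, against 40.1% of all features. This count says nothing about the crosses. All 6 sums were higher in both replicate 2 libraries than in both replicate 1 libraries, and such crosses cannot stand apart. The adjusted p of the 6 sums lay between 0.924 and 0.997. Of the 6 sums 3 were lower in the extra cross of both tables and 1 was higher, against 46.9% and 20.6% of all features. The median log2 fold change of the 6 was -0.13, against -0.14 over all 501 features and -0.091 over the 41 other anticodons tested. Standard errors were 0.60 to 0.75 on the log2 scale. With cross as the only term of the fit, they take in the contrast between the replicate numbers. With the replicate number as a second term they were 0.17 for Glu-CTC, 0.23 for Glu-TTC and Gly-GCC and 0.29 for Gly-CCC. For the rarer Gly-TCC and Gly-ACC they were 0.37 and 0.42. None of the 6 sums passed there (limma, lowest adjusted p 0.233, for Gly-TCC), although 145 of all 501 features did.

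Within the tables, Glu-CTC in the extra cross was at 83.7% and 94.2% of the original cross in replicates 1 and 2 (log2 fold change -0.17 ± 0.67, but 0.22 under median-ratio scaling, where the median of all features was 0.29). Glu-TTC was at 99.0% and 108% of the original cross (0.049 ± 0.73, but -0.087 when libraries were scaled to the sum of the 5 small RNA classes). Gly-GCC was at 102% and 85.5% (-0.10 ± 0.60, but 0.29 under median-ratio scaling) and Gly-CCC at 88.1% and 90.8% (-0.16 ± 0.75, but 0.23 there). For all 4 the ranges of the crosses overlapped.

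Gly-TCC had the lowest log2 fold change of the 6 sums. Within the tables it stood at 58.5% and 71.3% of the original cross (-0.63 ± 0.74, adjusted p = 0.924, limma). Each alternative also gave a negative value, between -1.09 and -0.17, and none passed the threshold. As a share of the tRNA class, Gly-TCC was 0.0754% and 0.0854% in the extra cross and 0.118% and 0.114% in the original cross. Here both extra-cross libraries lay below both original-cross libraries (exact permutation test, two-sided p = 0.333, the smallest this design allows). Shares of other anticodons stood apart too, in either direction. That of Arg-CCT was 0.0421% and 0.0584% in the extra cross and 0.0912% and 0.0691% in the original cross. That of Lys-TTT was 1.39% and 1.45% in the extra cross and 1.21% and 1.01% in the original cross. How many did so was not counted. The Gly-TCC sum stands for the worth of 203 and 1045 reads in the extra cross and 141 and 622 reads in the original cross.

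Families were then taken one by one, since fragments of near-identical genes can share reads and a sum can hide a member. Of the 20 families tested 11 were lower in the extra cross of both tables, against 45.8% of all 613 features, and 2 were higher in both, against 21%. The remaining 7 went in opposite directions in the 2 tables. Libraries of the crosses did not overlap for 2 of the 20, Gly-CCC-2 and Gly-TCC-2, against 36.9% of all features. In 14 families both replicate 2 libraries lay above both replicate 1 libraries, and in 3 below, so there the crosses could not stand apart. No family passed limma (0% of all features, 17.9% at an unadjusted p below 0.05), and the adjusted p ranged from 0.601 to 0.999. The count lower in both tables lies somewhat above the share of the whole table, and the other counts lie at or below theirs. With every gene as its own feature, 26 of 48 genes were lower in the extra cross of both tables, against 46.3% of 760 features, and 3 were higher, against 19.9%, but most of these genes are identical copies.

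All 5 tested Glu-CTC families were lower in the extra cross of both tables, as were 45.8% of all 613 features. All turned positive under median-ratio scaling (0.068 to 0.24). There the median of all features, with tRNA summed by anticodon, was 0.29. Glu-CTC-1 was at 83.4% and 95.1% of the original cross. Glu-CTC-2 had 1094 and 2748 RPM in the extra cross and 1398 and 3212 RPM in the original cross, or 78.2% and 85.5% of it. Glu-CTC-4 had 888 and 2571 RPM in the extra cross and 1011 and 3023 RPM in the original cross. These values nearly match those of Glu-CTC-5, at 871 and 2546 RPM in the extra cross and 982 and 3002 RPM in the original cross.

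The Glu-TTC families did not share this direction. Glu-TTC-1, with 4 copies, had 4638 and 11486 RPM in the extra cross and 4699 and 10643 RPM in the original cross. Glu-TTC-2, with 2 copies, had 2748 and 6802 RPM in the extra cross and 2716 and 6265 RPM in the original cross. Both stayed within 10% of the original cross in either table. Glu-TTC-3 was much rarer, at 52.9 and 174 RPM in the extra cross and 94.7 and 175 RPM in the original cross. It was at 55.8% of the original cross in replicate 1 and at 99.3% in replicate 2, so its log2 fold change of -0.42 ± 0.72 rests on 1 table.

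Among the glycine families, Gly-GCC-4 stood out from the other Gly-GCC families by its direction. It had 897 and 1588 RPM in the extra cross and 1247 and 2302 RPM in the original cross, which is 71.9% and 69.0% of the original cross within the tables. The log2 fold change was -0.51 ± 0.76 (limma adjusted p = 0.995) and stayed negative under every alternative (-0.95 to -0.063). Set against a copy of Gly-GCC-2 in the same library, the Gly-GCC-4 gene was at 1.05-fold and 1.8-fold in the extra cross and at 1.53-fold and 2.26-fold in the original cross. This ratio does not depend on the RPM scale and differed by -0.479 and -0.459 within the tables (extra minus original cross), although the libraries of the crosses overlapped (exact permutation test, two-sided p = 0.667). The other 5 Gly-GCC families were above the original cross in replicate 1 (105% to 129%) and below it in replicate 2 (70.5% to 97.3%). Of these, Gly-GCC-1 had 2419 and 1946 RPM in the extra cross and 2291 and 2035 RPM in the original cross. Gly-GCC-3 had 837 and 725 RPM in the extra cross and 757 and 745 RPM in the original cross. The rare Gly-GCC-5 (49.2 and 98.1 RPM in the extra cross, 38.2 and 113 RPM in the original cross) and Gly-GCC-6 (11.5 and 10.2 RPM in the extra cross, 9.04 and 14.5 RPM in the original cross) stand for the worth of only 24.2 and 5.72 reads in original-cross replicate 1.

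Gly-TCC-1, with 7 copies, had 121 and 235 RPM in the extra cross and 208 and 332 RPM in the original cross (-0.64 ± 0.66, adjusted p = 0.976, limma). Gly-TCC-2 had 9.87 and 13.2 RPM in the extra cross and 14.6 and 17.1 RPM in the original cross, with the crosses just apart. Both families were lower in the extra cross in each table and under every alternative.

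For Gly-CCC the abundant families moved little. Gly-CCC-1 had 1524 and 2101 RPM in the extra cross and 1801 and 2353 RPM in the original cross. Gly-CCC-5 had 546 and 565 RPM in the extra cross and 539 and 570 RPM in the original cross, so that the extra cross stood at 101% and 99.0% of the original cross. The rare Gly-CCC-2 had 9.57 and 10.5 RPM in the extra cross and 19.1 and 17.4 RPM in the original cross, the lowest log2 fold change of the 20 families (-0.80 ± 0.49, adjusted p = 0.601, limma). Its libraries did not overlap between the crosses, and the values stand for the worth of 14.9 and 44.3 reads in the extra cross and 12.1 and 30.9 reads in the original cross. Gly-CCC-3 and Gly-CCC-4, below the minimum, were also lower in the extra cross of both tables.

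**Figure D4:**
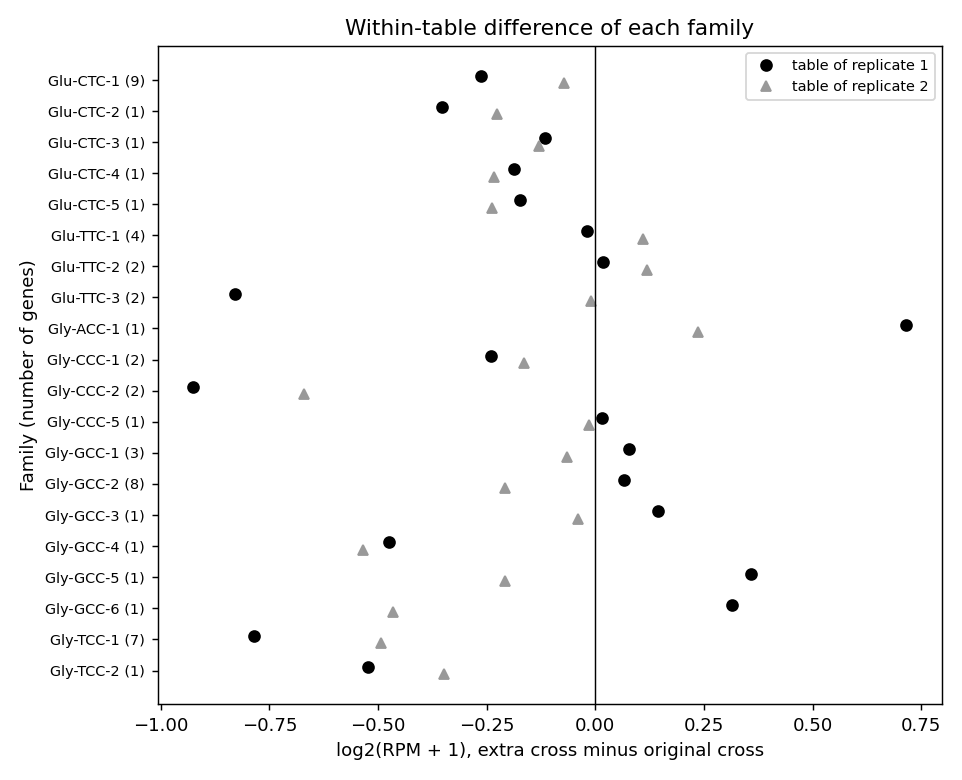
Difference of log2(RPM + 1), extra cross minus original cross (x axis), of each tested family (y axis, with its number of genes) within the table of replicate 1 (circles) and of replicate 2 (triangles). The Glu-CTC families and the Gly-TCC families lie left of 0 in both tables, 5 of the 6 Gly-GCC families lie on either side of 0, and Gly-ACC-1 lies right of 0 in both.

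A larger contrast lay between the replicate numbers, within each cross. Glutamate was 3.01-fold higher in replicate 2 than in replicate 1 in the extra cross and 2.70-fold in the original cross. Glycine was only 1.08-fold and 1.24-fold higher, while the tRNA class without these genes was 1.31-fold and 1.28-fold higher. The ratio of the glutamate sum to the glycine sum, which does not depend on the RPM scale, was 2.99 and 8.29 in extra-cross replicates 1 and 2 and 3.41 and 7.43 in original-cross replicates 1 and 2. Between the crosses this ratio differed by -0.428 in the table of replicate 1 and by 0.853 in that of replicate 2 (exact permutation test, two-sided p = 1). Between the replicate numbers the libraries did not overlap (exact permutation test, two-sided p = 0.333, its smallest value). This was not particular to the ratio. Shares of the tRNA class did not overlap there either for Glu-CTC, Glu-TTC, Gly-GCC, Gly-CCC and Gly-ACC, but did for Gly-TCC.

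All 6 anticodon sums were higher in both replicate 2 libraries than in both replicate 1 libraries, which held for 8.98% of the 501 features. It also held for 23 of the 41 other anticodons tested and for the tRNA class as a whole, so it is not particular to glutamate and glycine. Of the 20 families 14 were higher in both, against 15% of the 613 features, and 3 were lower in both replicate 2 libraries. Of the 41 other anticodons 12 were lower in both, and the share of all features in this direction was not counted. The sizes differed. Glu-CTC was 3.13-fold and 2.78-fold higher in the extra and original cross, and Glu-TTC 2.48-fold and 2.27-fold. Gly-GCC was 1.04-fold and 1.23-fold higher, close to Val-CAC (1.02-fold and 1.08-fold) and Lys-CTT (1.11-fold and 1.22-fold), the next most abundant anticodons of the class. Glutamate was not alone at the high end: among the 47 anticodons tested, Glu-CTC ranked 6 and 8 by this fold in the extra and original cross, and the 41 other anticodons ranged from 0.480-fold to 34.6-fold in the extra cross and from 0.293-fold to 16.8-fold in the original cross. The microRNAs of blood and of epididymal epithelium given above were lower in replicate 2 in both crosses. The sum of those of smooth muscle and stroma differed in direction between the crosses. Not all of its members did: mir-143 was higher in replicate 2 in both crosses and mir-145a was lower in both. The summed miRNA class was 441544 and 140437 RPM in extra-cross replicates 1 and 2 and 275809 and 117322 RPM in original-cross replicates 1 and 2, lower in replicate 2 where the tRNA class was higher. The part of these cells and of this shift between classes in the contrast was not tested. Labels give no date or batch, all 4 libraries shared 1 lane, and mouse, library and table cannot be told apart.

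Glu-CTC-3 went against the other glutamate families. It had 1045 and 466 RPM in extra-cross replicates 1 and 2 and 1133 and 510 RPM in original-cross replicates 1 and 2, which is 0.446-fold and 0.450-fold in replicate 2 relative to replicate 1. The other 7 tested glutamate families were 2.48-fold to 3.29-fold higher in replicate 2 in the extra cross and 1.85-fold to 3.06-fold in the original cross. Relative to a copy of Glu-CTC-1, the Glu-CTC-3 gene stood at 33.2% and 4.54% in extra-cross replicates 1 and 2 and at 30.0% and 4.72% in original-cross replicates 1 and 2. The crosses gave nearly the same values in each table (92.3% and 91.5% of the original cross). In glycine, Gly-GCC-1 and Gly-GCC-3 were also lower in both replicate 2 libraries, at 0.804-fold to 0.983-fold, while Gly-GCC-4 was 1.77-fold and 1.85-fold higher in the extra and original cross.

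**Figure D5:**
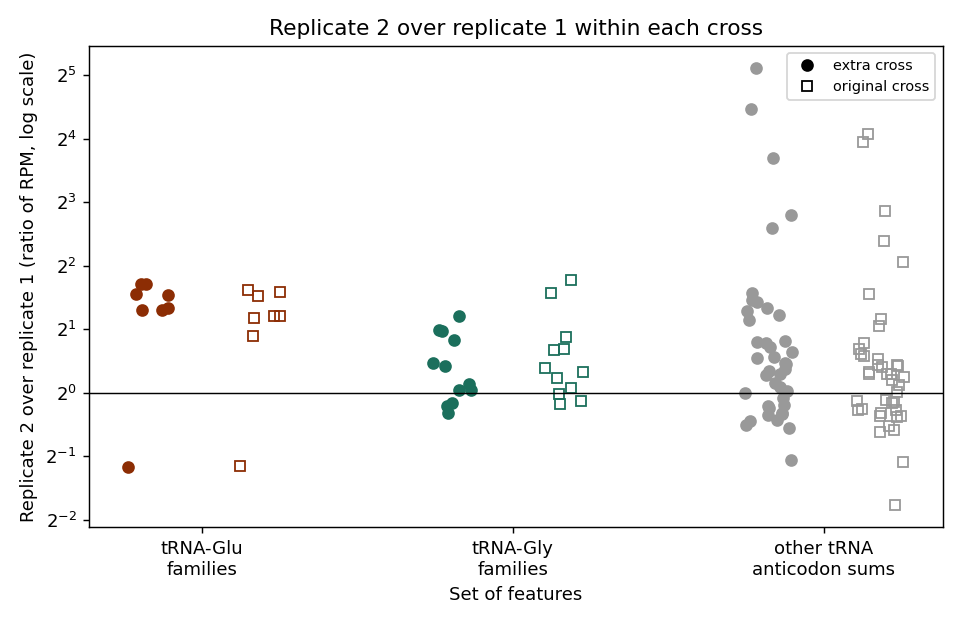
Ratio of RPM in replicate 2 to replicate 1 (y axis, log scale) within the extra cross (filled circles) and the original cross (open squares), for the 8 glutamate families, the 12 glycine families and the 41 other anticodon sums (x axis). Of the glutamate families 7 lie between 1.85-fold and 3.29-fold and Glu-CTC-3 lies near 0.45-fold, while the glycine families spread around and above 1.

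Transcripts of proteins that charge, modify or cut these tRNAs left few fragments. The list of 24 genes included the glutamyl-prolyl and glycyl tRNA synthetases (Eprs, Gars), angiogenins, which cut tRNA in the anticodon loop, and methyltransferases such as Trdmt1 and Nsun2. Of the 24, 20 were listed and 1 reached the minimum of 10 RPM, Rnh1, the inhibitor of angiogenin-type ribonucleases. Rnh1 had 12.8 and 5.47 RPM in the extra cross and 17.4 and 6.73 RPM in the original cross (log2 fold change -0.33 ± 0.60, limma adjusted p = 0.708), with overlapping libraries. None of the list passed, as for all 477 RefSeq genes tested (0%, with 114 at an unadjusted p below 0.05). The others that were listed had means from 0.146 RPM (Pus7) to 5.72 RPM (Rnaset2a). RefSeq values of original-cross replicate 1, Rnh1 and the sperm transcripts included, were multiplied by 26.2, since 1 read is worth less in the RefSeq rows of that library. Rnh1, with a mean of 10.6 RPM, passed the minimum only through this multiplication.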

How the data were processed

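Sperm RNA was size-selected on a gel and made into 4 TruSeq small RNA libraries, per the labels' protocols. CASAVA 1.8.2, Bowtie 1.1.2 and the build mm10 appear in the submitters' processing notes without a role or order. The deposited values are RPM per feature, in 2 tables. The authors' annotation, the total behind RPM and the rule for reads with several matches were not given in the sources used here. A feature listed in 1 table only was given 0 in the other.

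The value of 1 read was the commonest miRNA value of a column. Of values worth at most 20 reads, a share of 28.6% to 36.3% per library fell within 0.02 of a whole read, so no count model was run and no counting intervals are given. tRNA genes were summed by family, anticodon or amino acid. Each table of sums was joined to the other small RNA features, and features with a mean below 10 RPM were left out. The rest, as log2(RPM + 1), were fitted with limma 3.58.1 (R 4.3.3), with cross as the only term, a variance trend and Benjamini-Hochberg adjustment over all features. On this scale the fold change of a low feature is understated. Ratios and shares per library were compared by an exact permutation test in scipy 1.17.1. RefSeq transcripts were summed to genes through the reference gene table (81.7% matched). The fit was tested on simulated data with independent noise and no contrast between replicate numbers, so the test does not cover the contrast seen here.

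The labels state that each mouse was processed separately. The members, lists and settings were chosen with earlier results of these data known. The rule for names covers each glutamate or glycine anticodon and each of their families over the minimum, the 3 anticodons most like each sum, and pathway genes over the minimum. Genes of other anticodons, and families below the minimum, are named for comparison. Alternatives were other scalings, pseudocounts and minimums, a replicate block, no variance trend, other levels of summing and leaving out each library. RefSeq values as deposited, and each tRNA gene as its own feature for the anticodons, were alternatives chosen after seeing the data. No tRNA sequence was used here.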

Additional observations from a re-analysis of the deposited data

How the results depend on the processing

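No glutamate or glycine value passed limma's threshold under any alternative (lowest adjusted p 0.159, for the family Gly-CCC-2). Medians of all features moved from -0.14 to 0.29 under median-ratio scaling, where Glu-CTC (0.22), Gly-CCC (0.23), Gly-GCC (0.29), the glutamate sum (0.25), the glycine sum (0.27) and their total (0.27) turned positive. Glu-TTC turned negative on the scale of the 5-class sum (-0.087), and Gly-GCC turned positive with each class scaled on its own (0.0031). The difference of Gly-GCC in percent of the tRNA class was 0.112 and became -0.309 with identical rows kept once. Families that turned under median-ratio scaling were Glu-CTC-1 to Glu-CTC-5 (0.19, 0.068, 0.24, 0.15 and 0.15), Gly-CCC-1 (0.16), Gly-GCC-2 (0.29) and Gly-GCC-6 (0.25). With each class scaled on its own Gly-GCC-2 (0.034) and Gly-GCC-6 (0.029) turned. Scaled to the 5 classes Glu-TTC-1 (-0.091), Glu-TTC-2 (-0.068), Gly-CCC-5 (-0.13), Gly-GCC-1 (-0.13), Gly-GCC-3 (-0.084) and Gly-GCC-5 (-0.058) turned. Gly-TCC-1, Gly-TCC-2, Gly-CCC-2 and Gly-GCC-4 were negative under every alternative run.

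With 1 library left out, the median of all features ranged from -0.58 to 0.16. The cross difference then takes in that between the tables, and the lone library is assumed to vary like the rest. The ranges were then -0.99 to 0.65 for Glu-CTC, -0.61 to 0.70 for Glu-TTC, -0.34 to 1.29 for Gly-ACC, -0.34 to 0.021 for Gly-CCC, -0.25 to 0.049 for Gly-GCC, -1.09 to -0.17 for Gly-TCC, -0.93 to 0.66 for the glutamate sum, -0.27 to 0.038 for the glycine sum and -0.79 to 0.55 for their total. Family ranges were -1.02 to 0.69, -0.95 to 0.37, -0.70 to 0.46, -1.0 to 0.58 and -1.01 to 0.60 for Glu-CTC-1 to Glu-CTC-5. They were -0.61 to 0.70, -0.59 to 0.72 and -1.27 to 0.43 for Glu-TTC-1 to Glu-TTC-3. For glycine they were -0.43 to 0.029 for Gly-CCC-1, -0.039 to 0.041 for Gly-CCC-5, -0.15 to 0.16 for Gly-GCC-1, -0.23 to 0.091 for Gly-GCC-2, -0.051 to 0.16 for Gly-GCC-3, -0.70 to 0.85 for Gly-GCC-5 and -0.39 to 0.24 for Gly-GCC-6. The difference in the ratio of glutamate to glycine (0.212) ranged from -2.44 to 2.86. The difference of Gly-GCC in percent of the class was 0.653 and -0.429 within the tables of replicates 1 and 2.

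Features past the threshold numbered 0 in the whole table, 99 (96 of them piRNA loci) on the 5-class scale, and 0 to 61 with 1 library left out (61 without original-cross replicate 2). With a replicate block 145 features passed, of which 110 were piRNA loci and none a glutamate or glycine anticodon. Nothing in the labels makes same-numbered mice a pair, although with 2 pairs the deviations of same-numbered libraries correlated (r = 0.73 over 501 features). A minimum of 50 RPM left Gly-ACC and the rarest glycine families without a value. The causes were not tested. Depth is lowest in original-cross replicate 1 and limits Gly-ACC-1, Gly-GCC-6, Gly-TCC-2 and Gly-CCC-2 most among the tested families, with the worth of 4.11, 5.72, 9.25 and 12.1 reads there.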

Other observations

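Patterns over the 4 libraries were compared with those of the 41 other anticodons by Pearson correlation of log2(RPM + 1), as a description without a test, since 4 libraries of 2 replicate numbers share most of their variation. Most like the glutamate sum were Ala-TGC (r = 0.995), Val-AAC (0.993) and Asn-GTT (0.993). Their sizes differed: Ala-TGC had 480 and 1215 RPM in the extra cross and 538 and 1117 RPM in the original cross, Val-AAC 9743 and 13310 RPM in the extra cross and 10473 and 14057 RPM in the original cross, and Asn-GTT 79.6 and 1749 RPM in the extra cross and 86.9 and 1345 RPM in the original cross. Most like the glycine sum were Lys-CTT (0.977), Cys-GCA (0.939) and Val-CAC (0.915). Of these, Lys-CTT had 25338 and 28201 RPM in the extra cross and 25339 and 31004 RPM in the original cross.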
